A study of Saccharomyces cerevisiae with 6 samples.

Results

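The chaperones of the yeast cytosol and of the mitochondrial matrix were followed here as 39 listed genes, in cells whose only H2B carries alanine in place of lysine 37 and in cells whose only H2B is wild type. The genes were taken by name from the platform annotation and cover Hsp70, Hsp90, Hsp110, Hsp104 and Hsp60 proteins, the CCT chaperonin, J proteins and other co-chaperones. All 39 were found among the 5449 genes that the arrays measure, through 40 of 5498 probe sets, since *SSB1* has 2. Gene expression was measured on 6 Affymetrix Yeast Genome 2.0 arrays, 3 of H2B K37A cells (strain YKG007, plasmid pKG2) and 3 of wild-type H2B cells (strain YKG001, plasmid pZS145). Both are MATa strains in which *LEU2* replaces the HTA1-HTB1 pair and *TRP1* replaces the HTA2-HTB2 pair. Both also carry the leu2D1, ura3-52, lys2D1, lys2-128d, his3D200 and trp1D63 alleles. A *HIS3* plasmid supplies HTA1 with Flag-tagged HTB1, and in YKG007 that HTB1 is the K37A form. Each strain is a single plasmid-shuffled line, so that its 3 cultures, grown in parallel at 30°C in YPD to an OD600 of approximately 1.0, do not sample independent lines. As source the labels give histones extracted with acid, although their molecule field and the methods give total RNA, and RNA was assumed.

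Chaperones bind unfolded or partly folded proteins and let them fold, refold or move to where they are needed. Hsp70 proteins do so in cycles of ATP binding and hydrolysis, which J proteins stimulate and nucleotide exchange factors complete. Hsp90 acts later on a set of kinases, receptors and other clients, with co-chaperones that order its cycle, while the chaperonins CCT and Hsp60 enclose a substrate in a chamber. Many of these genes in budding yeast come as a constitutive and a stress-induced copy, and their transcription is driven by Hsf1, the heat shock factor, and for some by Msn2 and Msn4, the activators of the general stress response.

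The values are log2 signals that the authors computed with RMA, a method that gives all arrays the same distribution of probe signals. A change shared by most transcripts would therefore not be seen, and a signal does not compare the amounts of different genes. The mean signal of every one of the 39 genes was above 6.30, the 95th percentile of 1747 probe sets that bear names outside the *S. cerevisiae* table and served as a measure of background. Across the *S. cerevisiae* genes, which are not independent replicates, Pearson's r was 0.994 to 0.998 between K37A arrays, 0.997 to 0.998 between wild-type arrays and 0.984 to 0.996 between the strains. On the first principal component, which held 71.5% of the variance, K37A replicate 3 (-12.8) and wild-type replicate 1 (9.88) lay at the ends. For most of the larger differences among the 39 genes, values without either or both of these arrays are given beside them.

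The log2 difference between the strains was under 0.1 in size for 28 of the 39 chaperone genes. Of the other 11, 10 had lower signals in H2B K37A cells, and 1, *SSA3*, had higher ones. This split depends on the cut at 0.1, since *CCT6* (0.095), *CCT2* (0.086) and *HSP10* (-0.084) lay just under it. Over all 39 genes, 22 differences were positive and 17 negative. The share of all genes on each side of the cut was not counted. Of the 39 genes, 1, *SSE2*, passed an adjusted p of 0.05 from limma, as lower in H2B K37A cells. No gene passed as higher, and 38 did not pass. That is 2.56% of the genes, where 14.5% of all probe sets passed in either direction, 6.44% as higher and 8.08% as lower. At an unadjusted p under 0.05 there were 9 genes, 7 lower and 2 higher, or 23.1%, against 35% of all probe sets. The median log2 difference over the 39 genes, H2B K37A minus wild-type H2B, was 0.0049 (0.0015 over all genes), and the median size of the difference was 0.061 (0.091 over all probe sets). The signals of the strains did not overlap for 17 genes, 11 lower and 6 higher in H2B K37A cells, or 43.6%, close to the 42.1% of all probe sets. The extremes of the K37A to wild-type ratio were 0.742 for *SSA4* and 1.24 for *SSA3*, both of which missed the adjusted p. The 95% confidence interval of the difference lay within 1.5-fold for 37 genes, or 94.9% (92.1% of all probe sets), and within 1.2-fold for 30. *SSA4* and *APJ1* were the exceptions at 1.5-fold. In mean signal, *SSA3*, *APJ1*, *SSE2* and *SSA4* stood at percentiles 52.7, 62.9, 76.2 and 83.1 of the *S. cerevisiae* probe sets. *SSA2*, *HSC82* and *SSE1*, which differed little, stood at 98.3, 97.1 and 96.4. Others went the other way, as *HSP42* stood at 94.3 with a difference of -0.20 and *CPR7* at 57.1 with 0.067. How far the signal level bears on the size of a difference was not tested.

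**Figure D1:**
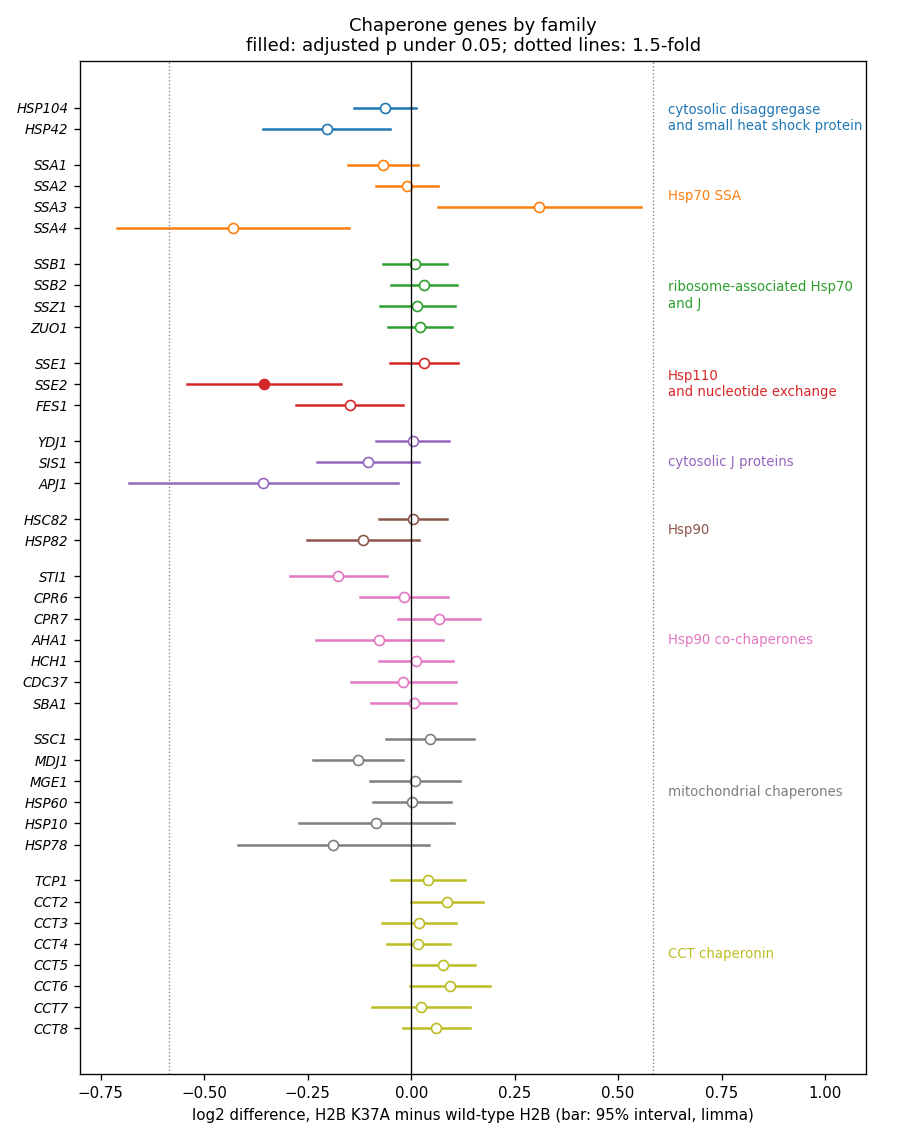
Log2 difference between H2B K37A and wild-type H2B cells for each of the 39 chaperone genes, grouped by family, with the 95% confidence interval from limma. *SSE2* is the only filled point (adjusted p under 0.05), and the intervals of *SSA4* and *APJ1* alone reach beyond the dotted lines at 1.5-fold.

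Hsp110 proteins are distant relatives of Hsp70 that release its ADP and hold unfolded chains, and Fes1 is a second kind of nucleotide exchange factor. *SSE2*, the stress-induced Hsp110, had log2 signals of 12.13, 12.03 and 11.83 on the K37A arrays, against 12.31, 12.38 and 12.37 on the wild-type arrays. Every K37A array was below every wild-type array, and K37A replicate 3 was the lowest. The mean was 12.00 ± 0.15 (SD, n = 3) in H2B K37A cells and 12.35 ± 0.04 (SD, n = 3) in wild-type cells. The K37A to wild-type ratio of *SSE2* was thus 0.782, and it fell by 0.35 on the log2 scale with a standard error of 0.078 (adjusted p = 0.0353 from limma). The difference was -0.27 without K37A replicate 3, where it still passed (adjusted p = 0.0345 from limma). It did not pass without wild-type replicate 1, 2 or 3 or without K37A replicate 2 (adjusted p = 0.0894 to 0.113 from limma), with differences of -0.38 to -0.34. Without both wild-type replicate 1 and K37A replicate 3 it was -0.29 (adjusted p = 0.0538 from limma). *SSE1*, the constitutive Hsp110, had 13.95, 13.95 and 14.01 on the K37A arrays and 13.94, 13.93 and 13.94 on the wild-type arrays. Its K37A values lay just above the wild-type ones, with a log2 difference of 0.030 (95% confidence interval -0.052 to 0.11). *FES1* had 13.47, 13.46 and 13.30, against 13.54, 13.58 and 13.55 in wild-type cells. All its K37A signals were lower, by 0.15 on average, but the gene did not pass (adjusted p = 0.107 from limma), and the difference was -0.093 without K37A replicate 3.

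The 4 Ssa proteins are the general Hsp70s of the cytosol, with *SSA1* and *SSA2* expressed in growing cells and *SSA3* and *SSA4* induced by stress. *SSA4* had 12.53, 12.52 and 12.11 on the K37A arrays, against 12.90, 12.78 and 12.77 on the wild-type arrays. The strains did not overlap, and K37A replicate 3 was 0.41 below the mean of the other K37A arrays. The log2 difference of -0.43 (standard error 0.12) was the largest in size among the 39 genes but missed the threshold (adjusted p = 0.0551 from limma). It was -0.29 without K37A replicate 3 and passed there (adjusted p = 0.0353 from limma). It also passed without K37A replicate 1 (adjusted p = 0.0387 from limma). It did not pass without K37A replicate 2 or without wild-type replicate 1, 2 or 3 (adjusted p = 0.115 to 0.153 from limma), nor, at -0.25, without both K37A replicate 3 and wild-type replicate 1 (adjusted p = 0.0504 from limma). *SSA3* ran the other way, with 11.22, 11.53 and 11.22 on the K37A arrays and 11.13, 10.90 and 11.01 on the wild-type arrays. Its K37A signals were all above the wild-type ones, with replicate 2 the highest. The log2 difference of 0.31 (standard error 0.10) did not pass (adjusted p = 0.084 from limma). The *SSA3* difference was 0.36 without K37A replicate 3, 0.37 without wild-type replicate 1 and 0.42 without both, and passed in none of these (adjusted p = 0.0888, 0.119 and 0.0985 from limma). *SSA1* had 13.72, 13.65 and 13.71, against 13.77, 13.74 and 13.77 in wild-type cells, a log2 difference of -0.068 (95% confidence interval -0.15 to 0.016). *SSA2* had 14.22, 14.21 and 14.22 and 14.24, 14.22 and 14.23 on the wild-type arrays, a difference of -0.011 (95% confidence interval -0.085 to 0.064). *SSA1* and *SSA2* are close in sequence, so that part of the signal of one can come from the other.

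Pairs of related genes were compared by the difference between their signals on the same array, with an exact permutation test over arrays for each of 7 pairs. With 3 arrays against 3 the smallest two-sided p is 0.1, so that no pair could pass. The log2 difference of *SSA3* exceeded that of *SSA4* by 0.74 (SD 0.22 between K37A arrays and 0.067 between wild-type arrays, n = 3 each, exact permutation p = 0.1, adjusted over the pairs 0.175). The constitutive *SSE1* exceeded the induced *SSE2* by 0.39 (SD 0.19 and 0.044, n = 3 each, exact permutation p = 0.1, adjusted 0.175). The constitutive Hsp90 gene *HSC82* exceeded the induced *HSP82* by 0.12 (SD 0.092 and 0.024, n = 3 each, exact permutation p = 0.1, adjusted 0.175). In these 3 pairs, and in *SSA1* with *SSA2*, where *SSA1* was 0.057 further down, the array values of the strains did not overlap. With 3 arrays against 3, this is the same event as an exact permutation p of 0.1 and is no separate support. How often other pairs of genes lay apart was not counted. The array values overlapped for *SSB1* with *SSB2*, *CPR6* with *CPR7* and *AHA1* with *HCH1*. There the first gene minus the second gave -0.022, -0.084 and -0.089, with exact permutation p of 0.2, 0.3 and 0.3 (adjusted 0.28, 0.3 and 0.3). The *SSB1* signal came from a probe set whose probes match several similar genes, so that it may hold signal of *SSB2*.

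**Figure D2:**
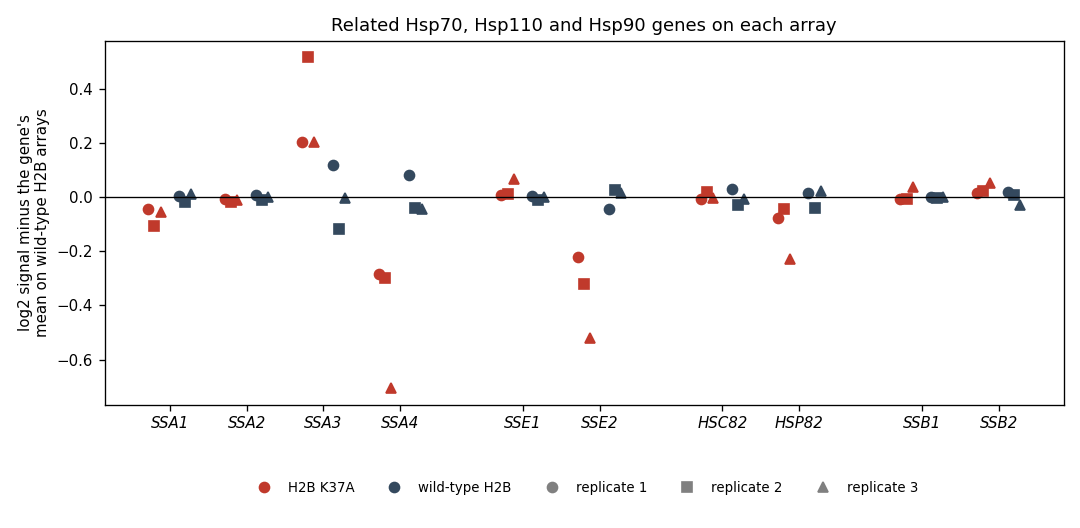
Log2 signal of related Hsp70, Hsp110 and Hsp90 genes on each array, minus the mean of that gene on the wild-type H2B arrays, with H2B K37A at the left of each gene and 1 symbol per replicate. *SSA4* and *SSE2* lie below 0 and *SSA3* above 0 on all K37A arrays, while *SSA2*, *SSE1*, *HSC82* and the *SSB* genes stay near 0.

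Hsp90 is encoded by *HSC82*, expressed at all times, and *HSP82*, which heat induces. *HSP82* had 13.49, 13.52 and 13.34 on the K37A arrays, against 13.59, 13.53 and 13.59 on the wild-type arrays. The K37A values were lower, though replicate 2 lay just beneath the lowest wild-type value, and the log2 difference of -0.12 (standard error 0.056) did not pass (adjusted p = 0.192 from limma). It was -0.060 without K37A replicate 3. *HSC82* had 14.04, 14.07 and 14.05, against 14.08, 14.02 and 14.04 in wild-type cells, with a difference of 0.0049 (95% confidence interval -0.077 to 0.087).

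None of the 7 Hsp90 co-chaperone genes passed, and 1 had an unadjusted p under 0.05 from limma. This was *STI1*, whose product links Hsp70 to Hsp90 and hands clients from the first to the second. *STI1* had 13.63, 13.64 and 13.51 on the K37A arrays, against 13.76, 13.74 and 13.82 on the wild-type arrays. The strains did not overlap, and the log2 difference was -0.18 (standard error 0.049, adjusted p = 0.0564 from limma), or -0.13 without K37A replicate 3. The arrays of the strains overlapped for the other genes of the group. *AHA1*, which encodes an activator of the Hsp90 ATPase, had 12.51, 12.53 and 12.34, against 12.59, 12.47 and 12.54 in wild-type cells, a log2 difference of -0.077. It was -0.016 without K37A replicate 3 and 0.013 without both that array and wild-type replicate 1. Its relative *HCH1* had 13.34, 13.35 and 13.29, against 13.34, 13.32 and 13.27, a difference of 0.012. The cyclophilin genes *CPR6* and *CPR7* encode Hsp90-bound prolyl isomerases. *CPR6* had 13.31, 13.39 and 13.26, against 13.37, 13.32 and 13.31 in wild-type cells, a difference of -0.017. *CPR7* had 11.33, 11.37 and 11.40, against 11.27, 11.28 and 11.36, a difference of 0.067. *CDC37*, for kinase clients, and *SBA1*, the p23 homolog, differed by -0.018 and 0.0064. The median of the group was -0.017.

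J proteins bring substrates to Hsp70 and stimulate its ATPase. *APJ1*, a J protein of the cytosol and nucleus that heat induces, had 11.61, 11.47 and 11.05 on the K37A arrays, against 11.70, 11.72 and 11.79 on the wild-type arrays. It had the widest spread between K37A arrays of the 39 genes, with an SD of 0.29 (0.046 between wild-type arrays, n = 3 each). K37A replicate 3 stood 0.49 below the mean of the other K37A arrays. The log2 difference was -0.36 (standard error 0.14, adjusted p = 0.118 from limma) and -0.19 without K37A replicate 3. It was -0.47 without K37A replicate 1, the one array whose omission let it pass (adjusted p = 0.0445 from limma). *SIS1*, an essential J protein that also holds Hsf1 in check through Hsp70, had 13.59, 13.58 and 13.44, against 13.63, 13.62 and 13.68. Its K37A values were lower on all arrays, with a difference of -0.10 (adjusted p = 0.20 from limma), or -0.055 without K37A replicate 3. *YDJ1*, the most general J protein of the cytosol, differed by 0.0034 (95% confidence interval -0.086 to 0.092).

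Hsp104 pulls proteins out of aggregates, and Hsp42 is a small heat shock protein that gathers misfolded proteins in the cytosol. *HSP42* had 13.69, 13.62 and 13.45 on the K37A arrays, against 13.81, 13.79 and 13.77 on the wild-type arrays. The wild-type arrays lay within 0.038 of each other, and all K37A arrays were below them. The log2 difference of -0.20 (standard error 0.064) did not pass (adjusted p = 0.0751 from limma). It was -0.14 without K37A replicate 3 and -0.26 without K37A replicate 1, the one array whose omission let it pass (adjusted p = 0.0361 from limma). *HSP104* had 13.72, 13.71 and 13.69, against 13.77, 13.76 and 13.77, all K37A arrays again the lower. Its difference of -0.063 (95% confidence interval -0.14 to 0.013) was small beside that of *HSP42*, and the difference between these genes was not tested.

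**Figure D3:**
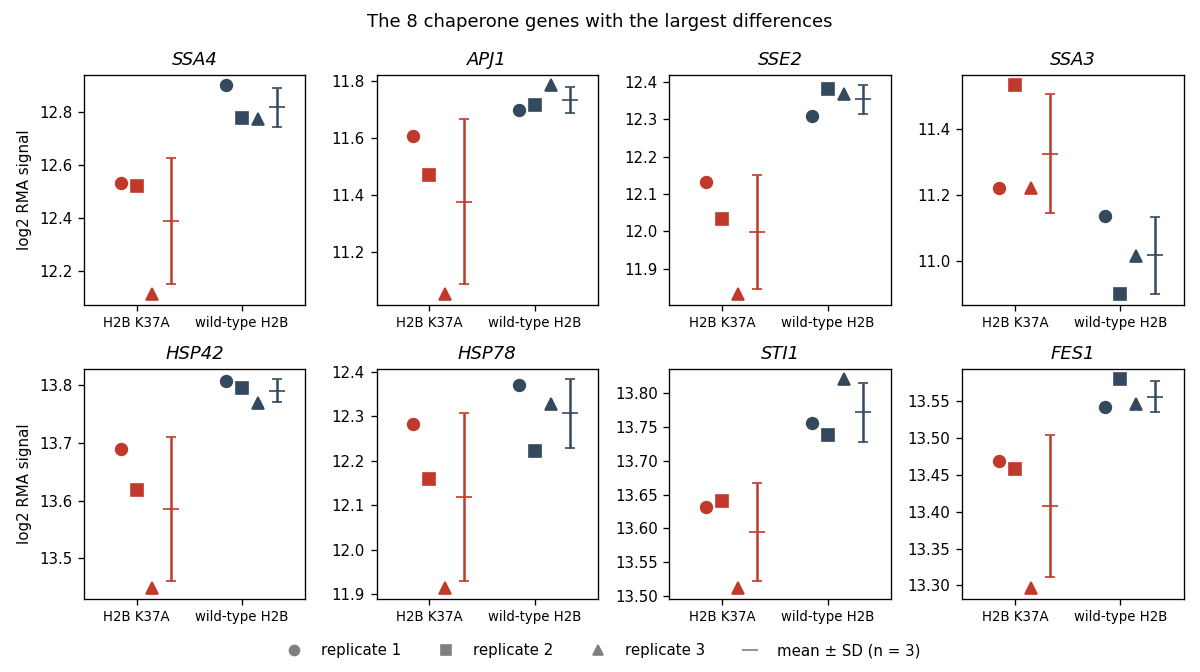
Log2 RMA signal on each array for the 8 chaperone genes with the largest differences, H2B K37A at the left of each panel, with the mean ± SD (n = 3); each panel has its own axis, which does not start at 0. K37A replicate 3, the triangle, is the lowest array for every gene shown except *SSA3*.

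In the mitochondrial matrix, Ssc1 is the Hsp70 that drives import and folding, Mdj1 is its J protein and Mge1 its exchange factor, Hsp60 and Hsp10 form the chaperonin, and Hsp78 is the Hsp104 relative. None of these 6 genes passed. *HSP78* had 12.28, 12.16 and 11.91 on the K37A arrays, against 12.37, 12.22 and 12.33 on the wild-type arrays. K37A replicate 1 lay within the wild-type range and K37A replicate 3 far below it. The log2 difference was -0.19 (standard error 0.097, adjusted p = 0.217 from limma), or -0.085 without K37A replicate 3 and -0.053 without wild-type replicate 1 as well. *MDJ1* had 12.03, 11.92 and 11.93, against 12.05, 12.12 and 12.09, with no overlap, a difference of -0.13 with a standard error of 0.045 (adjusted p = 0.0983 from limma), and K37A replicate 2 was the lowest. Of the single arrays left out, only the omission of K37A replicate 1 let *MDJ1* pass, at -0.17 (adjusted p = 0.0452 from limma). *HSP10* had 13.59, 13.49 and 13.32, against 13.64, 13.53 and 13.48, a difference of -0.084. That of *HSP10* was -0.011 without K37A replicate 3, -0.039 without wild-type replicate 1 and 0.034 without both. *HSP60*, whose product works with Hsp10, differed by 0.0021 (95% confidence interval -0.091 to 0.096). *SSC1* and *MGE1* differed by 0.046 and 0.0092, with K37A and wild-type arrays that overlapped.

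Ssb1 and Ssb2 are nearly identical Hsp70s that bind chains leaving the ribosome, and Ssz1 and Zuo1 form the complex that recruits and stimulates them there. These genes differed little, with log2 differences of 0.0091 for *SSB1*, 0.031 for *SSB2*, 0.015 for *SSZ1* and 0.021 for *ZUO1*, and 95% confidence intervals that together ran from -0.076 to 0.11. *SSB1* had 14.45, 14.45 and 14.49 on the K37A arrays, against 14.45, 14.45 and 14.45 on the wild-type arrays. *SSB2* had 14.25, 14.25 and 14.28, against 14.25, 14.24 and 14.20. The *SSB1* values, also in the pair comparison, come from the brighter of its 2 probe sets, whose name marks probes that match several similar genes. The other *SSB1* set, which bears no such mark, gave a difference of 0.027, with every K37A array above every wild-type array. The signals of *SSB1* and *SSB2* cannot be fully told apart in the brighter set. With a highest signal of 14.80 on any array, the signals of both genes lay close to the top of the scale.

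CCT is the chaperonin of the cytosol, a double ring of 8 related subunits that folds actin and tubulin. The K37A mean was higher for each of its 8 genes, and none passed in the main comparison. Under the 15 alternative settings given at the end, *CCT5* passed as higher in 2 and *CCT2* in 1, and no other subunit passed. The log2 differences ran from 0.018 for *CCT4* to 0.095 for *CCT6*, with a median of 0.051. *CCT6* had 13.21, 13.23 and 13.31 on the K37A arrays, against 13.12, 13.17 and 13.18 on the wild-type arrays, and its difference was 0.067 without K37A replicate 3 and 0.049 without wild-type replicate 1 as well. *CCT2* had 13.24, 13.31 and 13.30, against 13.18, 13.19 and 13.22, a difference of 0.086 (adjusted p = 0.145 from limma). *CCT5* had 13.49, 13.52 and 13.52, against 13.43, 13.42 and 13.44, a difference of 0.078 with a standard error of 0.032 (adjusted p = 0.138 from limma). With *CCT8*, at 0.061, these were the 4 of 8 subunits whose arrays did not overlap, all higher in H2B K37A cells, where 20.6% of all probe sets lay apart in that direction. *TCP1*, *CCT3*, *CCT4* and *CCT7* differed by 0.040, 0.018, 0.018 and 0.024 and overlapped, and those of *CCT3* and *CCT7* were -0.0050 and -0.017 without K37A replicate 3. The 95% confidence intervals of all 8 genes lay between -0.094 and 0.19, so that a rise or fall of 1.2-fold or more was outside each.

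**Figure D4:**
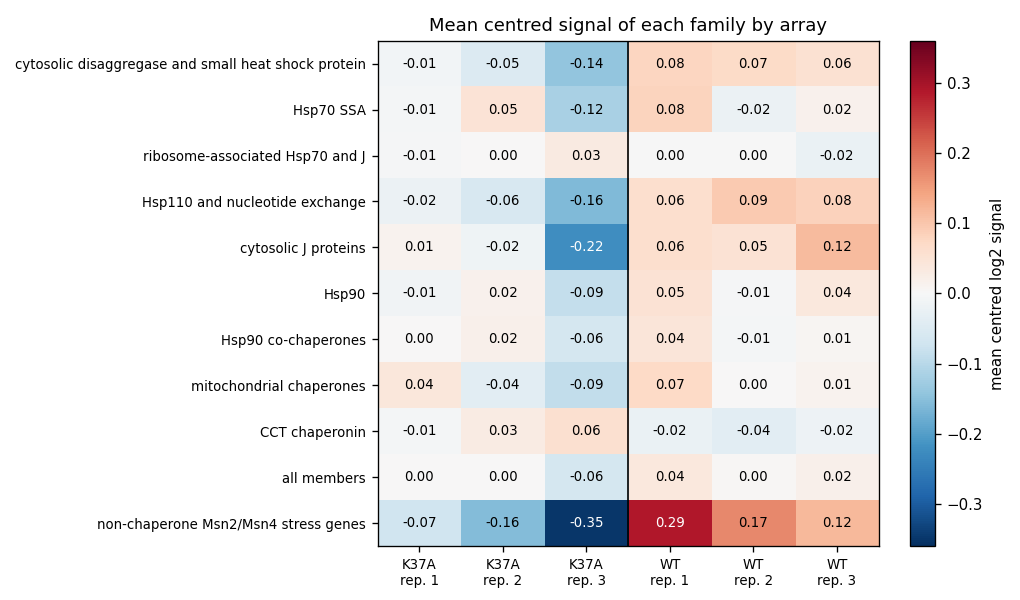
Mean log2 signal of each chaperone family on each array, every gene centred on its own mean over the 6 arrays, with all 39 genes and 21 non-chaperone stress genes of Msn2 and Msn4 in the bottom rows. K37A replicate 3 was at -0.22 for the cytosolic J proteins and -0.35 for the stress genes, but at 0.06 for the CCT genes and 0.03 for the ribosome-associated ones.

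The lower signals were deepest on the same culture. Of the 17 genes with a negative difference, 13 had their lowest signal on K37A replicate 3, and so did 8 of the 10 genes with the largest differences. The share of all lower probe sets that were lowest on that array was not counted. K37A replicate 3 also lay at an end of the first principal component of all genes. The counts therefore do not show a trait particular to the chaperones. The SD was larger between K37A arrays than between wild-type arrays for 28 of the 39 genes, and for 3340 of all 5449 genes. The median SDs of the 39 genes were 0.043 and 0.031 (0.068 and 0.053 over all probe sets). As a mean, listed genes raised by Msn2 and Msn4 moved along the same arrays. A list of 21 such genes that encode no chaperone had a mean centred log2 signal of -0.07, -0.16 and -0.35 on the K37A arrays, against 0.29, 0.17 and 0.12 on the wild-type arrays. Of these, 11, or 52.4%, were lower and none higher in limma, where 8.08% of all probe sets were lower, with a median log2 difference of -0.20. The lower count was 11, 0 and 7 without K37A replicates 1, 2 and 3 and 0, 0 and 1 without wild-type replicates 1, 2 and 3, with medians of -0.26 to -0.18. Without both K37A replicate 3 and wild-type replicate 1, 2 were lower and the median was -0.16. Not all stress genes moved so. *HSP12*, listed with the small heat shock proteins, had 12.83, 13.43 and 12.90 on the K37A arrays, against 13.23, 13.03 and 12.82, a difference of 0.029. *HSP26*, listed there too, differed by -0.12 (adjusted p = 0.284 from limma), and both overlapped between the strains. The list of Msn2 and Msn4 genes was chosen with earlier results of these data known. The part of this stress program, or of the growth state of a culture, in the chaperone differences was not tested. Of the transcription factors themselves, *MSN4* had 10.55, 10.33 and 10.42 on the K37A arrays, against 11.11, 10.95 and 10.82 on the wild-type arrays. *MSN4* fell by 0.52 on the log2 scale (standard error 0.087, adjusted p = 0.0218 from limma). It did not pass without K37A replicate 2 or without wild-type replicate 1 or 2 (adjusted p = 0.0832, 0.0598 and 0.0937 from limma). With both K37A replicate 3 and wild-type replicate 1 left out, the *MSN4* difference was -0.44 (adjusted p = 0.0680 from limma). *MSN2* and *HSF1* differed by 0.12 and 0.089 and did not pass (adjusted p = 0.175 and 0.243 from limma).

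The share of related genes outside the 39 that passed was near that of all probe sets. With those 3 factors, 53 of 54 listed genes of other chaperones and partners were measured, and 7, or 13.2%, passed, 5 higher and 2 lower, with a median log2 difference of -0.0034. The count was 8, 0 and 6 without K37A replicates 1, 2 and 3 and 0, 0 and 1 without wild-type replicates 1, 2 and 3, and 1 without both K37A replicate 3 and wild-type replicate 1. For each of the 7 genes the strains did not overlap, so that leaving out any single array could not turn its direction. Of the single omissions, *MSN4* passed in 3, *CNS1* in 1, and *JJJ3*, *PAM18*, *ECM10*, *SSQ1* and *TAH1* in 2 each. *CNS1*, an essential Hsp90 co-chaperone, had 11.47, 11.55 and 11.66 on the K37A arrays, against 11.33, 11.36 and 11.33 on the wild-type arrays, and rose by 0.22 (standard error 0.052, adjusted p = 0.0432 from limma). *TAH1*, which joins Hsp90 to a complex that assembles small nucleolar RNPs, had 11.82, 11.89 and 11.69, against 11.51, 11.47 and 11.56, and rose by 0.28 (standard error 0.059, adjusted p = 0.0325 from limma). The strains were apart for these Hsp90 partners, and so they were for the J protein genes that passed. *JJJ3*, for a J protein of diphthamide synthesis, had 9.53, 9.66 and 10.13, against 9.05, 9.30 and 9.15, and rose by 0.60 (standard error 0.16, adjusted p = 0.0497 from limma), with K37A replicate 3 the highest. *JJJ3* was 0.42 higher without that array (adjusted p = 0.0398 from limma) and 0.37 higher without wild-type replicate 1 as well, where it did not pass (adjusted p = 0.0673 from limma). *PAM18*, for a J protein of the mitochondrial import motor, had 11.79, 11.75 and 11.94, against 11.56, 11.52 and 11.61, and rose by 0.26 (standard error 0.058, adjusted p = 0.0352 from limma). The mitochondrial Hsp70 genes outside the 39 split. *SSQ1*, whose product serves iron-sulfur cluster assembly, had 10.73, 10.72 and 10.72 on the K37A arrays, against 10.94, 10.96 and 10.94, and fell by 0.23 (standard error 0.031, adjusted p = 0.0171 from limma). *ECM10*, a paralog of *SSC1*, had 8.82, 8.84 and 8.70, against 8.55, 8.41 and 8.47, and rose by 0.31 (standard error 0.055, adjusted p = 0.0241 from limma). No gene of prefoldin and its relatives (7 measured), of the endoplasmic reticulum (11) or of small heat shock and aggregate sorting proteins (9) passed in limma, where 1, 4 and 2 had an unadjusted p under 0.05. Among the last, *CUR1* and *BTN2*, which direct misfolded proteins to deposits, differed by -0.28 and -0.25 (adjusted p = 0.112 and 0.0885 from limma).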

How the data were processed

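Total RNA of 3 H2B K37A and 3 wild-type H2B cultures was labeled and hybridized to 1 array each. The authors deposited log2 values for 10928 probe sets, made with RMA in Affymetrix Expression Console per the labels, and the sources used here give no versions. The platform annotation named the probe sets, and 5498 of them, for 5449 genes, were found in the R64 assembly's gene table and tested. Coordinates are left out because no build of the arrays is stated. H2B K37A was compared with wild-type H2B in limma 3.58.1 (R 4.3.3) with no replicate block, and two-sided p-values were adjusted by Benjamini-Hochberg over the 5498 probe sets and held to 0.05. The study selected genes by a 2-fold cutoff, and its methods name no test. Each gene is represented by its brightest probe set on average. An exact permutation test over arrays served for pairs of genes.

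The members and lists were chosen with earlier results of these data known. By rule, array values are given for genes past the threshold, the 10 largest differences and related pairs, with up to 4 genes of each other list, and those of a few further genes were added after their values were seen. Alternatives tried were testing of all probe sets, a filter at the background percentile, quantile normalization again, median centring, a replicate block, each array left out, an intensity trend, array weights and averaging over a gene's probe sets. Leaving out both wild-type replicate 1 and K37A replicate 3 was chosen after seeing the data. In 20 simulated data sets of this comparison, with 5498 probe sets and 200 changed genes each, limma called 60.6% of 1.2-fold, 96.5% of 1.5-fold and 99.7% of 2-fold changes, and 5.39% of its calls were unchanged genes. In the data 798 probe sets passed, and 2 to 1140 with single arrays left out, so that these shares need not hold there. Precision is limited by the number of arrays, and the p-values measure the spread between cultures of 1 line of each strain.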

Additional observations from a re-analysis of the deposited data

How the results depend on the processing

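Of 585 values of single genes under the alternatives, 560 kept their side of the threshold, 6 no longer passed and 19 came to pass, and no value past the threshold in either setting changed its direction. The 6 were all *SSE2*, the only gene that passed in the main comparison, which passed in 9 of its 15 alternatives. Most other genes had an adjusted p above 0.1 from limma to begin with, so that the 560 say little about how stable a call is. The number of the 39 genes past the adjusted p was 1, where 798 of 5498 probe sets passed. It became 0 when all probe sets were tested (0 lower) and 2 with the replicate block (2 lower, *SSE2* and *SSA4*). With an intensity trend it was 5 (1 higher, *CCT5*, and 4 lower), where 965 probe sets passed. With array weights it was 10 (3 higher, *SSA3*, *CCT2* and *CCT5*, and 7 lower), where 1956 passed. It was 0 (0 lower) with both arrays at the ends of the first component, wild-type replicate 1 and K37A replicate 3, left out. It was 0 to 5 with single arrays left out, all of them lower. The 5, without K37A replicate 1, were *SSE2*, *SSA4*, *APJ1*, *MDJ1* and *HSP42*. Over all *S. cerevisiae* probe sets the count of 798 (354 higher, 444 lower) became 249 (98 and 151) with all probe sets tested. It was 965 (447 and 518) with an intensity trend, 1956 (943 and 1013) with array weights and 129 (70 and 59) without both arrays. With single arrays left out it was 2 to 1140 (0 to 525 higher, 2 to 615 lower), the 1140 without K37A replicate 1. The count over all probe sets thus rose too with the trend, with the weights and without K37A replicate 1. With arrays centred on their median it was 869 (445 and 424).

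The median over the 39 genes became 0.021 with median centring, and was -0.0069 to 0.014 with single arrays left out. That of the Hsp90 co-chaperones became 0.029 with array weights and 0.034 without both arrays, and that of the mitochondrial genes 0.021 without both arrays. With single arrays left out the family medians were -0.16 to -0.095 for Hsp104 and Hsp42, -0.047 to -0.028 for the Ssa genes, 0.0072 to 0.026 for the ribosome-associated genes, -0.18 to -0.093 for Hsp110 and Fes1, -0.13 to -0.055 for the J proteins, -0.078 to -0.026 for Hsp90, -0.028 to 0.020 for its co-chaperones, -0.085 to -0.0031 for the mitochondrial genes and 0.043 to 0.065 for CCT. The cause of these shifts was not tested. The estimation of the array weights stopped before it converged. Same-numbered arrays of the strains deviated together with correlations of 0.40, -0.29 and 0.23 across probe sets, so that the numbers were not taken to pair the cultures, and the block moved the count over all probe sets from 798 to 947.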
